A study of Homo sapiens with 6 samples.

Results

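The HES and HEY genes encode transcriptional repressors of the basic helix-loop-helix-Orange (bHLH-O) class, and 9 of them were followed here in human embryonic stem cells given an antisense oligonucleotide against LINE-1. They are HES1, HES2, HES4, HES5, HES6, HES7, HEY1, HEY2 and HEYL, found by symbol, 9 of the 53712 rows of the count table. The set was proposed with the contrast between the oligonucleotides in view, so every value of that contrast given for these genes is a description, and the adjusted p values printed for them come from a fit of the whole table and are no independent test of the family. Each of the 9 symbols had 1 row, and 8 rows held enough reads to be tested. HES3, a further HES gene, is not among the 9 and is given with the relatives.

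The cells were H9, a long-established embryonic stem cell line, grown in PXGL, a medium for the naive state of pluripotency, and all libraries come from this 1 line. One group received 25 nM of a sense oligonucleotide to LINE-1 (SO-L1), the control, and the other 25 nM of the antisense oligonucleotide (ASO-L1), both by lipofection. Trans-ISRIB, emricasan and the ROCK inhibitor Y-27632 were given to both groups around the transfection and later taken out, and no untransfected cells were compared. RNA was taken 48 hours after transfection from cells that were not sorted, and uptake of the oligonucleotide was not analysed here. There were 3 poly(A) libraries per group, numbered 1 to 3 in both, with 23330875 to 31164287 counts each. No label says that the 3 libraries of a group were grown as separate cultures. The p-values therefore measure spread between libraries that may be technical only. LINE-1 RNA was not analysed here, so the targeted RNA gives no check of the labels. Of the naive markers, DNMT3L (79.9 ± 2.90, mean ± SD, n = 3), ALPPL2 (53.7) and DPPA5 (34.2) were present in SO-L1 in counts per 1000000 reads (CPM), whereas KLF17, a defining one, was near 0 in both groups, at 0.743 ± 0.196 and 0.395 ± 0.146 CPM.

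HES and HEY proteins bind DNA as dimers, at N boxes and the related class C sites, and recruit corepressors, for HES proteins chiefly those of the TLE (Groucho) family. Several of them are direct targets of Notch signalling. A ligand on one cell engages a Notch receptor on its neighbour, proteolysis frees the intracellular domain of the receptor, and this domain joins the DNA-binding protein RBPJ and a Mastermind coactivator at their promoters. In development these repressors hold back the proneural bHLH activators and keep progenitors from differentiating, HES7 runs the segmentation clock of the presomitic mesoderm, and the HEY genes act in heart and vessels. Pluripotent cells express some of them at low or moderate level, and HES1 also responds to signals other than Notch.

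The promoters are shown first because RBPJ sites are what ties individual members to Notch. A window of 250 bases before to 50 bases after the start of the gene was taken from RefSeq (GRCh38.p14) for 8 of the 9 genes, all except HEY1, and searched on both strands for 3 motifs. These were the RBPJ core TGGGAA, the N box CACNAG and the class C site CACGNG, where N is any base. A CACGAG matches both of the last motifs. The HES1 promoter is printed in full up to its start because it holds all 3 motifs, and that of HES2 because HES2 fell in every alternative tried and its window holds no RBPJ core. For HES4, HES5, HEYL and HEY2 only the stretch around the RBPJ core on the strand of the gene is printed, so that the flanking bases can be compared. All are written 5′ to 3′ on the strand of the gene, with each TGGGAA in capitals.
HES1 (chr3:194135898-194136147, plus strand): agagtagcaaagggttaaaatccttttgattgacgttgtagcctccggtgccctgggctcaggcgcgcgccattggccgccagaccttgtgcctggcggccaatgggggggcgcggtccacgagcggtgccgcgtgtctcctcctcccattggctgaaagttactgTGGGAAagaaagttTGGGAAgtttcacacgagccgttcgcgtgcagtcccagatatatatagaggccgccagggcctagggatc
HES2 (chr1:6419920-6420169, minus strand): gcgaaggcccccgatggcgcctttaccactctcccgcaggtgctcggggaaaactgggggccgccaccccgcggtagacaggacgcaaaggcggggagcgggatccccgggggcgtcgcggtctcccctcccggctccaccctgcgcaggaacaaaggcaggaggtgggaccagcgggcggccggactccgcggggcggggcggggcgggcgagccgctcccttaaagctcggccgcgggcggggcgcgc
HES4 (chr1:1000141-1000200, minus strand): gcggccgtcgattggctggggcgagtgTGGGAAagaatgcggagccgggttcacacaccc
HES5 (chr1:2530311-2530370, minus strand): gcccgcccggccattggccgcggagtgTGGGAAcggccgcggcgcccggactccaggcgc
HEYL (chr1:39639710-39639769, minus strand): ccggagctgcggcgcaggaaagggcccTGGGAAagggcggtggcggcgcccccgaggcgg
HEY2 (chr6:125749617-125749646, plus strand): agagttgcggcgTGGGAAagagccgctagg

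An RBPJ core occurred in 5 of the 8 windows, against 24.0% of all 35116 windows of 300 bases in the table. HES1 held a pair of cores on the strand of the gene, beginning 84 and 70 bases before the start. One core on the same strand began 76 bases before the start in HES4, 80 bases before it in HES5, 99 bases before it in HEYL and 3 bases before it in HEY2. HES5, HEYL and HEY2 had a further core on the opposite strand, farther upstream. No TGGGAA was present in the windows of HES2, HES6 and HES7. The N box was found in HES1, HES2 and HES7, 3 of 8 windows against 38.0% of all windows, and the class C site in HES1 and HES7, 2 of 8 against 30.5%. HES1 itself carried 4 N box and 4 class C matches, and 2 positions, 132 and 58 bases before its start, counted for both. These matches describe letters only, and binding at them was not measured.

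**Figure D1:**
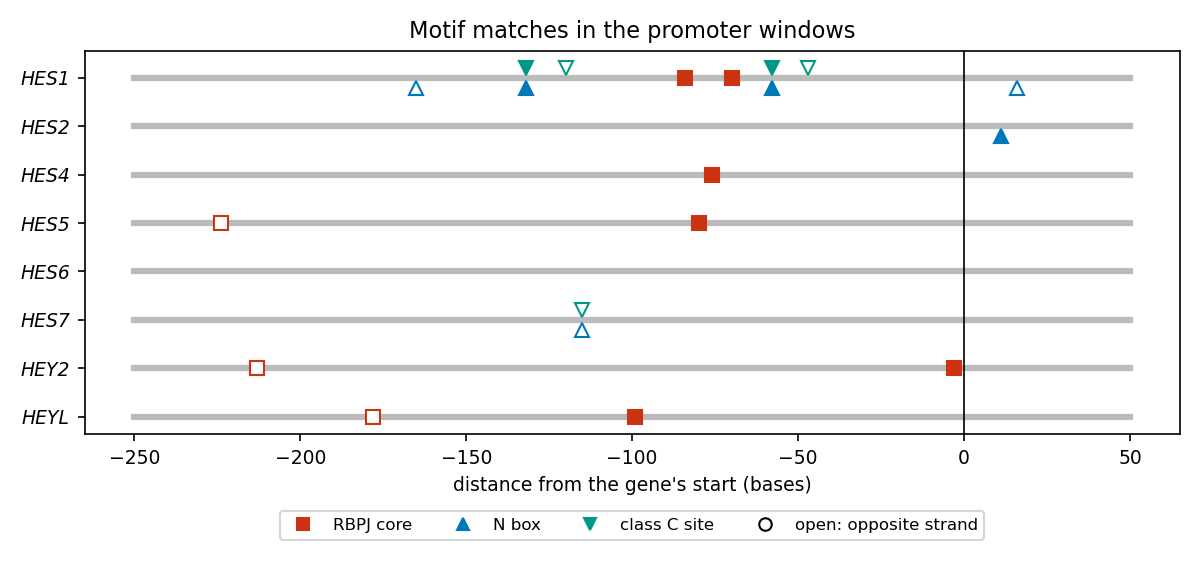
Position of each motif match in the promoter windows of 8 genes. The horizontal axis is the distance from the start of the gene in bases, each grey bar is a window, squares are RBPJ cores, upward triangles N boxes, downward triangles class C sites, and open symbols lie on the opposite strand. HES1 holds all 3 motifs, HES6 none of them.

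After ASO-L1 the family moved in both directions. Among the 8 tested genes HEY1 and HES1 rose, HES2, HES6 and HEY2 fell, and HES4, HES5 and HEYL were not called. With the replicate number as a block 7 were called, HES4 higher and HES5 lower in addition, beside 7719 of all 16873 tested genes. Without the block there were 2 called higher, beside 18.0% of all 16873 tested genes, and 3 called lower, beside 15.7%. A call is an edgeR quasi-likelihood p, Benjamini-Hochberg adjusted over all tested genes, under 0.05, and 33.7% of all tested genes were called in either direction. In 5 of the 8 no SO-L1 library overlapped the ASO-L1 range, beside 50.9% of all tested genes. Their median log2 fold change was -0.21 and their median absolute log2 fold change 0.72, beside -0.01 and 0.27 over all tested genes. Nothing is read from these counts about the family, because its members were chosen on this contrast. In bulk RNA, fewer cells of a type and less RNA per cell cannot be told apart, and this holds for each value that follows.

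**Figure D2:**
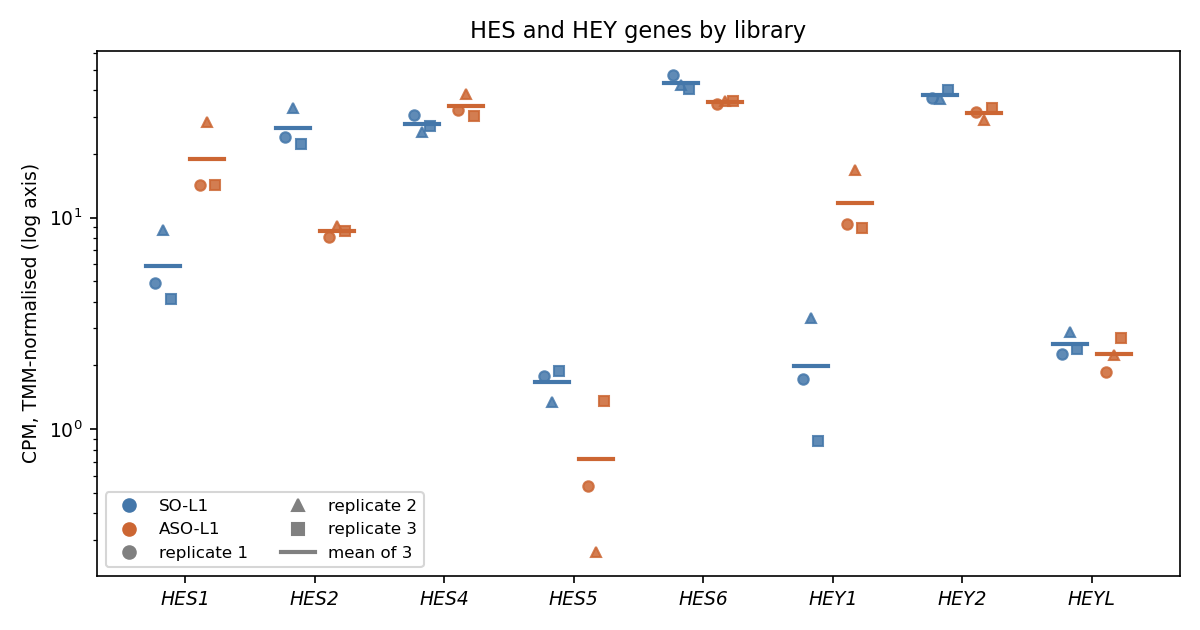
Level of the 8 tested HES and HEY genes in each library. The vertical axis is TMM-normalised CPM on a log scale, blue is SO-L1, orange is ASO-L1, marker shape gives the replicate number and the bar the mean of 3 libraries. The ASO-L1 libraries lie above the SO-L1 libraries for HES1 and HEY1 and below them for HES2, HES6 and HEY2.

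HEY1, best known as a Notch target in arterial endothelium, heart and bone, had the largest fold change of the 8. It stood at 1.73, 3.34 and 0.881 CPM in SO-L1 replicates 1 to 3 and at 9.33, 16.8 and 8.89 CPM in the ASO-L1 replicates. Every ASO-L1 library was above every SO-L1 library, and replicate 2 was the highest of its group in both arms. The means were 1.98 ± 1.25 and 11.7 ± 4.42 CPM (SD, n = 3), a 6.00-fold difference (log2 2.59 ± 0.46 SE, edgeR adjusted p = 0.00763). These levels rest on 27 to 82 reads per SO-L1 library and 226 to 382 per ASO-L1 library. Within a replicate number the log2 difference was 2.38, 2.30 and 3.23. Numbers 1 and 2 thus gave nearly the same difference from unequal control levels, and the difference was widest for number 3, where the control was lowest. Among 15 processing alternatives the log2 fold change of HEY1 ran from 2.22 without SO-L1 replicate 3 to 3.14 without SO-L1 replicate 2. Its call was lost in 1 of them, with no filter on low counts (adjusted p = 0.0515).

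HES1, the most widely used Notch target and a repressor of proneural genes and of its own promoter, was the other member that rose. SO-L1 replicates 1 to 3 held 4.93, 8.71 and 4.11 CPM of HES1 and the ASO-L1 replicates 14.2, 28.4 and 14.2 CPM. The groups did not overlap, and as for HEY1 replicate 2 was the highest library of each group. Mean levels were 5.92 ± 2.45 and 18.9 ± 8.19 CPM (SD, n = 3), a 3.22-fold difference (log2 1.69 ± 0.39, edgeR adjusted p = 0.0198). The difference within a replicate number was 1.51, 1.70 and 1.77 on the log2 scale. The 3 numbers thus gave similar changes from control levels of 4.11 to 8.71 CPM. The adjusted p was 0.109 with no filter on low counts, 0.0562 without SO-L1 replicate 3 and, leaving out both libraries of a number, 0.0514 without number 1 and 0.0824 without number 3, while the log2 fold change over the 15 alternatives stayed between 1.28 and 2.05. HES1 is also the gene whose window holds 2 RBPJ cores on 1 strand, as printed above.

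HES2 is one of the less studied members of the family. Its SO-L1 replicates 1 to 3 were at 24.0, 33.1 and 22.3 CPM and its ASO-L1 replicates at 8.05, 9.12 and 8.67 CPM. The control libraries were all high, the ASO-L1 libraries all low and close to each other, and the gap between the groups was wider than either group. HES2 fell from 26.4 ± 5.81 to 8.61 ± 0.539 CPM (SD, n = 3), a 3.06-fold difference (log2 -1.62 ± 0.15, edgeR adjusted p = 8.89e-04). Within replicate numbers the differences were -1.57, -1.85 and -1.35. HES2 kept its call in all 15 alternatives, and its log2 fold change ran from -1.73 to -1.43 over them. Of the 5 called members it was the only one with a call in every alternative. Its window, whose upstream bases are printed above, has an N box beginning at base 11 after the start and no RBPJ core.

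HES6 differs from the rest in function. It is known to antagonise HES1 and to promote neuronal differentiation, and it does not bind the N box as HES1 does. HES6 stood at 47.4, 42.3 and 40.4 CPM in SO-L1 replicates 1 to 3 and at 34.5, 35.6 and 35.6 CPM in ASO-L1. Every ASO-L1 library lay below every SO-L1 library, and the 3 ASO-L1 values were almost equal. HES6 fell from 43.4 ± 3.60 to 35.2 ± 0.618 CPM (SD, n = 3), a 1.23-fold difference (log2 -0.30 ± 0.08, edgeR adjusted p = 0.0182). The difference was -0.46 within number 1, -0.25 within number 2 and -0.18 within number 3. So the control library of number 1 was the highest and gave the widest gap. The call was lost without ASO-L1 replicate 1 (0.0750) or SO-L1 replicate 1 (0.0788), and when both libraries of number 1 (0.249) or of number 3 (0.0741) were left out. HES6 fell while HES1 rose, a pattern seen after the values were known. As neither gene's groups overlapped, the opposite signs within each replicate number follow from that. A link between HES6 and HES1 was not tested.

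HEY2, a repressor needed for ventricular and arterial identity, had the highest level of the HEY genes here, also per length. Its levels were 36.7, 36.5 and 40.2 CPM in SO-L1 replicates 1 to 3 and 31.5, 28.8 and 32.9 CPM in ASO-L1. The groups did not overlap, but they were separated by a narrow gap. HEY2 fell from 37.8 ± 2.05 to 31.1 ± 2.08 CPM (SD, n = 3), a 1.22-fold difference (log2 -0.28 ± 0.08, edgeR adjusted p = 0.0256). Within numbers the differences were alike, at -0.22, -0.34 and -0.29. HEY2 and HEY1 moved in opposite directions. With no overlap of the groups in either gene, this had to hold in each replicate number. The call on HEY2 was lost in 5 of the 15 alternatives, namely without ASO-L1 replicate 1 (0.0742), SO-L1 replicate 1 (0.0633), SO-L1 replicate 3 (0.118), both libraries of number 1 (0.162) or both of number 3 (0.154).

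HES5 is the Notch effector of neural stem cells and was close to the lower limit of measurement. It had 56, 33 and 58 reads in SO-L1 replicates 1 to 3 and 13, 6 and 42 reads in ASO-L1, which is 1.79, 1.34 and 1.89 CPM against 0.537, 0.263 and 1.36 CPM. ASO-L1 replicates 1 and 2 were below every control library, but ASO-L1 replicate 3 was above SO-L1 replicate 2, so the groups overlapped. The means were 1.68 ± 0.293 and 0.721 ± 0.573 CPM (SD, n = 3; log2 -1.15 ± 0.44, edgeR adjusted p = 0.0688). With the replicate number as a block the adjusted p was 0.00424. HES5 also passed the threshold with DESeq2 (0.0441), limma-voom (0.0353) and no filter (0.00107), and without ASO-L1 replicate 3 (log2 -2.05, adjusted p = 0.00354), replicate 2 of both groups (0.0161) or replicate 3 of both groups (0.0143). Its log2 fold change ran from -2.05 to -0.78 over the 15 alternatives. The ends of that range came from leaving out ASO-L1 replicate 3 (-2.05) and ASO-L1 replicate 2 (-0.78, adjusted p = 0.106).

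HES4, which people have and mice lack, was measured at 30.7, 25.4 and 27.0 CPM in SO-L1 replicates 1 to 3 and at 32.2, 38.4 and 30.2 CPM in ASO-L1. SO-L1 replicate 1 was above ASO-L1 replicate 3, so the groups overlapped, although each ASO-L1 library was above the SO-L1 library of its number. The log2 difference was 0.60 within number 2 but 0.07 and 0.16 within numbers 1 and 3. HES4 averaged 27.7 ± 2.70 and 33.6 ± 4.28 CPM (SD, n = 3; log2 0.28 ± 0.11, edgeR adjusted p = 0.0730). The block on replicate number gave 0.0237, no filter 0.0478 and the fit without ASO-L1 replicate 3 0.0439, and over all alternatives the adjusted p ran from 0.0237 to 0.231. Of the 5 members with an RBPJ core in the window, HES1 was called higher, HEY2 was called lower, and HES4, HES5 and HEYL were not called.

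HEYL, a vascular Notch target and the third HEY gene, showed no called difference. It was at 2.27, 2.89 and 2.38 CPM in SO-L1 and 1.86, 2.24 and 2.69 CPM in ASO-L1, replicates 1 to 3, and the groups overlapped. The estimate was -0.14 ± 0.20 (edgeR adjusted p = 0.627), which does not show the groups to be alike. HES7 had 0, 2 and 3 reads in SO-L1 replicates 1 to 3 and 2, 4 and 5 reads in ASO-L1. It was too sparse to test, and no fold is given. For SO-L1 replicate 1 a count of 0 allows a level of up to 0.0960 CPM (3 reads, counting error only). Of the 6 markers of the presomitic mesoderm, in which HES7 is known to act, MSGN1, MESP2 and RIPPLY2 were under 0.5 CPM in every library, while T (5.57 ± 1.70 CPM in SO-L1 and 7.21 ± 1.07 in ASO-L1) and TBX6 (1.46 ± 0.149 and 1.82 ± 0.311) had reads in every library and MESP1 reached 0.610 CPM. Without a block T was not called (edgeR adjusted p = 0.197), and with the replicate number as a block it was called higher.

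Levels can be set against each other only per length, so counts were also divided by the exon length of each gene in GENCODE release 29 (RPKM, the CPM per kilobase of exon). In SO-L1 the order was HES4 at 24.8 ± 2.42, HES6 at 21.3 ± 1.77, HEY2 at 13.8 ± 0.747, HES2 at 4.89 ± 1.08, HES1 at 2.87 ± 1.19, HES5 at 1.28 ± 0.224, HEYL at 0.687 ± 0.0899, HEY1 at 0.613 ± 0.386 and HES7 at 0.032 ± 0.0281 RPKM. Ranges of the 3 control libraries overlapped between the neighbours HES4 and HES6, HES2 and HES1, and HEYL and HEY1, so those places are not settled. In ASO-L1 HES1 reached 9.18 ± 3.97 RPKM, with a range of 6.88 to 13.8 that overlaps HEY2 at 11.3 ± 0.76, and HEY1 reached 3.61 ± 1.37 RPKM, above HES2 at 1.59 ± 0.0997. In that control order HES1 was in the middle and HEY1 near the bottom, and the 3 members that fell were among the 4 highest. HES4 and HES6 change places in SO-L1 when the longest coding transcript is used, at 26.6 and 27.1 RPKM. With that length HES1 at 12.0 RPKM also stands above HEY2 at 11.6 RPKM in ASO-L1.

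Read assignment and neighbouring genes were looked at next. No exon of a member overlaps an exon of another gene in GENCODE release 29, though the annotation used for the deposited counts may differ. The gene beside HES6, PER2 of the circadian clock, rose from 9.35 ± 1.42 to 18.7 ± 5.37 CPM (edgeR adjusted p = 0.00592, lost only without replicate 1 of both groups, 0.0514), while HES6 fell. ILKAP on its other side was not called (0.13, 0.241). The genes flanking HES2, ACOT7 (0.11, 0.207) and ESPN (-0.32, 0.124, with the block 0.0132), and those flanking HEY2, HDDC2 (-0.01, 0.895) and NCOA7 (-0.18, 0.249), were not called either. STMN2 beside HEY1 gave -0.11 (0.744), and the other neighbour of HEY1 and both of HES1 had no reads.

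HES3, HELT, BHLHE40 and BHLHE41 are the related bHLH-O genes outside the set. Of the 3 that could be tested 1 was called, beside 33.7% of all tested genes. HES3 was at 18.4, 13.3 and 18.4 CPM in SO-L1 replicates 1 to 3 and between 5.00 and 9.93 CPM in the ASO-L1 libraries. It fell like HES2, from 16.7 ± 2.94 to 7.98 ± 2.62 CPM (log2 -1.06 ± 0.24, edgeR adjusted p = 0.0112), and lost its call only without replicate 1 of both groups (0.0757). HES3 and HES2 lie close together on chromosome 1, in the RefSeq order HES3, GPR153, ACOT7, HES2. GPR153, an orphan receptor gene looked up after the values of HES3 were seen, fell from 14.2 ± 0.287 to 6.76 ± 1.08 CPM (log2 -1.07 ± 0.13, edgeR adjusted p = 0.00135), whereas ACOT7 between it and HES2 and ICMT on the other side of HES3 (0.02, 0.835) did not pass the test. BHLHE40, a repressor of the clock and of hypoxia responses, was at 50.1 ± 9.25 and 94.4 ± 37.5 CPM (log2 0.91 ± 0.30, edgeR adjusted p = 0.0603, with the block 1.63e-06), and its highest library in each group was replicate 2, as for HES1 and HEY1. BHLHE41 gave 0.07 ± 0.35 (0.899), and HELT was too sparse to test.

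**Figure D3:**
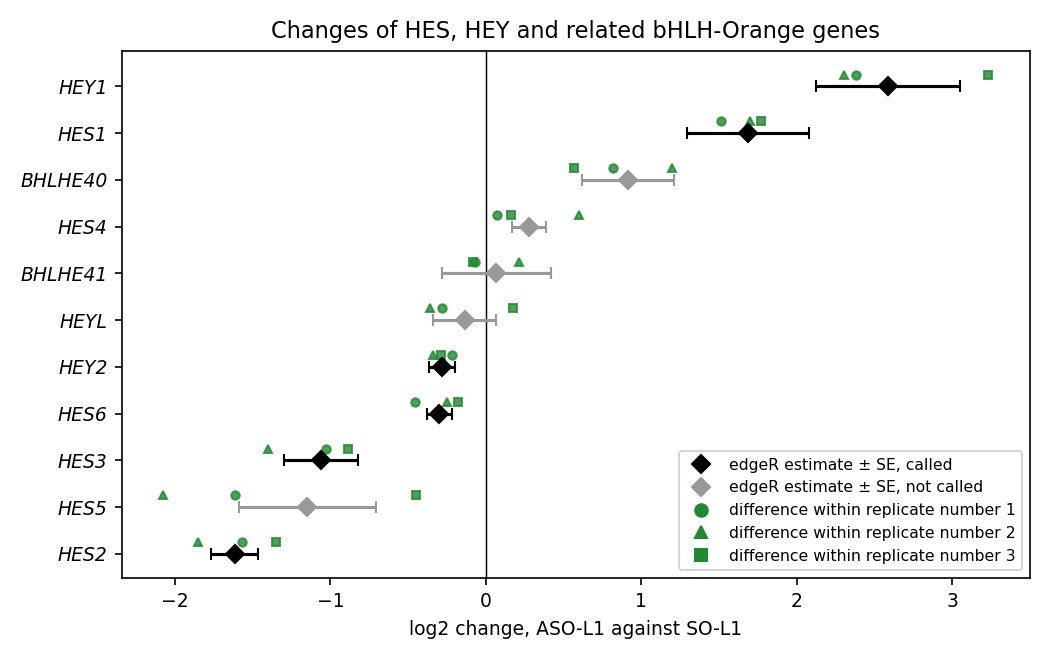
Difference of ASO-L1 from SO-L1 for the tested members and their bHLH-O relatives, on a log2 scale. Diamonds are edgeR estimates with their SE (black called, grey not called) and green symbols the differences within each replicate number. HEY1 (2.59) and HES1 (1.69) lie farthest right, HES2 (-1.62) farthest left, and the HES5 symbols spread from -2.07 to -0.45.

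The rest of the Notch pathway was taken from 7 lists with 46 genes, of which 45 had a row and were tested. In all, 4 were called higher and 9 lower, 28.9% of the 45 beside 33.7% of all tested genes, and their median log2 fold change was -0.02. Under the block on replicate number 23 were called, beside 7719 of all 16873 tested genes. Without a block, the count of called Notch genes was 6 without ASO-L1 replicate 1 and 6 without SO-L1 replicate 3. It was 2 when both libraries of number 1 were left out and 6 when both of number 3 were. Over all genes the same fits called 4542 and 2975, then 1183 and 2820, beside 5684 with all libraries. Most differences of the Notch genes were far smaller than those of HEY1, HES1 and HES2.

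Of the 7 ligands 2 fell and none rose. DLL3, a ligand-like protein that acts inside the cell to dampen Notch, fell from 12.5 ± 0.642 to 7.06 ± 0.542 CPM (log2 -0.83 ± 0.11, edgeR adjusted p = 0.00173), and JAG2 fell slightly (-0.31 ± 0.09, 0.0257). DLL1, an activating ligand, was at 12.0, 15.9 and 11.8 CPM in SO-L1 and 28.9, 88.7 and 24.6 CPM in ASO-L1, with replicate 2 again the highest of each group. Its groups did not overlap, yet the wide spread left it uncalled (log2 1.84 ± 0.58, edgeR adjusted p = 0.0638, with the block 0.0317). Without ASO-L1 replicate 2 the DLL1 difference was 1.02 and its adjusted p 1.57e-04. DLL4 (0.93 ± 0.55, 0.225), JAG1 (-0.22 ± 0.12, 0.171, with the block 0.0312), DLK1 (-0.32 ± 0.16, 0.146, with the block 0.00808) and DLK2 (0.08 ± 0.18, 0.762) were not called. The receptors split, with NOTCH2 higher (0.26 ± 0.07, 0.0139), NOTCH1 (-0.22 ± 0.08, 0.0470) and NOTCH3 (-0.24 ± 0.07, 0.0280) lower and NOTCH4 (0.28 ± 0.23, 0.362) not called. The receptor differences were all under 0.3 on the log2 scale, and leaving out single libraries ended the calls on NOTCH1 (any library but SO-L1 replicate 1, 0.0628 to 0.199), NOTCH3 (ASO-L1 replicate 1, SO-L1 replicate 2 or 3, 0.0713 to 0.123) and NOTCH2 (SO-L1 replicate 1, 0.0592). The call on JAG2 ended without ASO-L1 replicate 1 (0.124), SO-L1 replicate 1 (0.0967) or SO-L1 replicate 3 (0.0905).

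Downstream of the receptors single genes moved. NRARP, a feedback inhibitor and a direct Notch target like HES1, was at 49.9, 47.2 and 49.2 CPM in SO-L1 and 66.0, 79.9 and 62.2 CPM in ASO-L1. It rose 0.51 ± 0.09 on the log2 scale (edgeR adjusted p = 0.00409), while DTX1, the other feedback target, gave -0.14 (0.535). RBPJ itself was not called (-0.15 ± 0.09, 0.218). In the nuclear complex 1 of 7 genes was called, the Mastermind coactivator MAML1, higher (0.44 ± 0.08, 0.00319). Proteolysis had 2 called of 9, FURIN higher (0.42 ± 0.10, 0.0124) and ADAM10 lower (-0.20 ± 0.07, 0.0455), and glycosylation 1 of 6, LFNG lower (-0.27 ± 0.09, 0.0449). Trafficking and turnover had 3 lower of 10, with NUMB, an inhibitor of Notch, at -0.50 ± 0.09 (0.00351), and DTX3 and DTX4. The call on ADAM10 ended without any 1 of the 6 libraries (0.0665 to 0.149), that on LFNG without replicate 1 or 3 of either group (0.115 to 0.162), and that on DTX4 without ASO-L1 replicate 1 or 3 or SO-L1 replicate 2 or 3 (0.0559 to 0.0713). FURIN missed the threshold without SO-L1 replicate 1 (0.0655) or 3 (0.0539) and DTX3 without ASO-L1 replicate 1 (0.0545). Without both libraries of number 1, NRARP (0.0535) and NUMB (0.0589) missed the threshold too.

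Partners and opponents of the HES and HEY proteins were counted in the same way. Of 14 corepressor genes 1 was called higher and 3 lower. The share to set beside this and the counts below is 33.7% of all tested genes, called in either direction. TLE4, a Groucho corepressor of HES proteins, fell by 0.67 ± 0.08 (edgeR adjusted p = 0.00145), CIR1 by 0.79 ± 0.12 (0.00224) and NCOR1 by 0.33 ± 0.08 (0.00949), while SIRT1, which HES1 and HEY2 are known to bind, rose by 0.16 and lost that call without any 1 of the 6 libraries (0.0620 to 0.113). The bHLH partners gave 2 higher and 2 lower of 7. ID2, a dominant negative of bHLH activators, rose from 9.86 ± 1.69 to 58.5 ± 41.8 CPM (log2 2.57 ± 0.57, edgeR adjusted p = 0.0241, without SO-L1 replicate 3 0.0653, and log2 1.81 without ASO-L1 replicate 2, its highest library) and ID3 by 0.58 ± 0.18 (0.0353, and 0.0552 to 0.125 without any 1 library but ASO-L1 replicate 3), while the E proteins TCF4 (-0.39 ± 0.08) and TCF12 (-0.39 ± 0.09) fell. Of the 14 genes listed as proneural activators, 6 could be tested and 2 rose and 2 fell. HES1 is known to repress some genes of this list in neural tissue, not the list as a whole. ATOH8 rose from 0.318 ± 0.0893 to 2.59 ± 0.867 CPM and OLIG2 from 1.07 ± 0.082 to 3.14 ± 0.586 CPM, whereas ATOH1 (-0.71 ± 0.21, 0.0246) and OLIG3 (-0.61 ± 0.16, 0.0181) fell. The calls on ATOH1 and OLIG3 ended without SO-L1 replicate 1 (0.0976 and 0.0562) or SO-L1 replicate 3 (0.0935 and 0.0860), and those on NCOR1 (0.0657), TCF4 (0.0713) and TCF12 (0.0678) without both libraries of number 1.

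**Figure D4:**
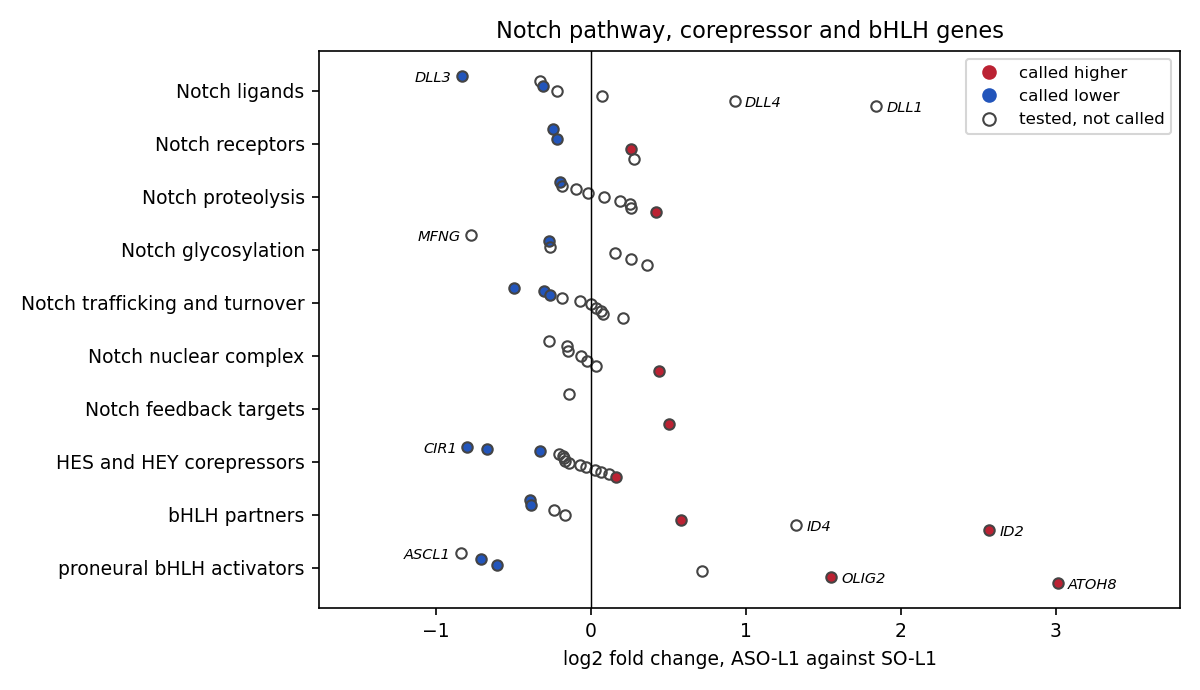
Log2 fold change of ASO-L1 against SO-L1 for the tested genes of the 7 Notch lists and of the corepressor, bHLH partner and proneural lists, 1 row per list and 1 point per gene. The bHLH-O relatives are not plotted. Red is called higher, blue called lower and open not called. Most Notch pathway points lie within 0.5 of 0, and the plotted points beyond 1 are DLL1, ID4, ID2, OLIG2 and ATOH8.

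For each called member the tested genes with the most similar pattern were found by the root mean square difference of log2 CPM over the 6 libraries, each gene centred on its own mean, among 12454 candidates. HES1 was closest to CIDECP (0.06), a pseudogene whose reads may be shared with its parent, and to TAC1 (0.07), the gene of substance P. HEY1 was closest to FILIP1L (0.16) and MAFF (0.21), HES2 to GPX2 (0.10) and TMTC1 (0.14), HES6 to PIGL (0.02) and OXLD1 (0.04), and HEY2 to KIAA0319L (0.01) and TMEM104 (0.02). These figures describe 6 libraries of which 3 are controls, and the likeness includes the difference between the groups. For HES6 and HEY2, whose own range is narrow, many genes of small change come close.

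Markers of other cells moved in part with the members. Beside the counts that follow, 33.7% of all tested genes were called in either direction. Of the naive markers 2 of 9 rose, KLF4 and TFCP2L1, and 4 fell, DPPA3, DNMT3L, SUSD2 and KHDC3L, with a summed level of 349 to 371 CPM in SO-L1 and 302 to 307 CPM in ASO-L1. None of the 5 general pluripotency markers was called by edgeR without a block, at 3580 to 3940 and 3020 to 3550 CPM, while with the block POU5F1 (-0.16, 0.0391) and LIN28A (-0.17, 0.0301) passed. NANOG (-0.28, edgeR adjusted p = 0.0553 without a block), TDGF1 (-0.22, 0.0851) and SOX2 (-0.13, 0.318) also had negative estimates and were not recomputed with the block. For NANOG and TDGF1 every ASO-L1 library was below every SO-L1 library. Neural progenitor markers, from tissue where HES1 and HES5 are known to act, summed to 715 to 834 and 723 to 816 CPM, nearly all NES, and PAX6 (1.13 to 3.78 CPM) and LHX2 (0.151 to 0.711 CPM) rose, FABP7 fell and SOX1 stayed under 0.5 CPM everywhere. Of 5 neuronal markers 2 fell, DCX and ELAVL3 (594 to 606 and 600 to 725 CPM summed). Endothelial markers, where HEY1 and HEY2 are known to act, summed to 33.8 to 35.3 and 37.8 to 39.9 CPM, and TEK and ESAM, 2 of 4, rose from low levels. KDR, at 31.3 and 30.8 CPM most of that sum, gave log2 -0.02 (edgeR adjusted p = 0.857), and CDH5 gave -0.70 (0.315). Neither was called without a block. In amnion 2 of 5 rose (WNT6 and TFAP2A, 4.45 to 5.37 and 5.78 to 11.5 CPM summed). VTCN1 (log2 -0.99, edgeR adjusted p = 0.0664), ISL1 (0.72, 0.123) and GABRP (0.50, 0.173) were not called without a block. In trophoblast 1 of 4 rose (CDX2, 19.5 to 22.3 and 21.2 to 33.4 CPM) and in fibroblasts 2 of 6 (COL1A1 and PDGFRB, 472 to 533 and 527 to 578 CPM). In presomitic mesoderm none of 2 was called without a block (6.00 to 9.68 and 8.99 to 10.3 CPM), while T was called higher with it. No list had a marker at 0 in all libraries. Of the markers recomputed, the call was lost in 8 of the 15 alternatives for FABP7, 9 for PDGFRB, 5 for TFAP2A, 4 each for WNT6 and COL1A1, and 3 each for DCX and KLF4. What part cells of these types have in the values of HES1, HEY1 or the other members was not tested.

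In the authors' deposited table of the same contrast, 21.4% of its genes have an adjusted p under 0.05. The authors' deposited table gives the same 5 members under that threshold, with log2 fold changes of 2.66 for HEY1 (adjusted p = 0.00234), 1.66 for HES1 (0.00579), -1.60 for HES2 (0.00166), -0.31 for HES6 (0.0378) and -0.30 for HEY2 (0.0478). HES4 (0.26, 0.134), HES5 (-1.32, 0.0590) and HEYL (-0.14, 0.675) are above it in the authors' deposited table, HES3 (-1.11, 0.00920) and BHLHE40 (0.84, 0.0236) are under it, and HES7 has no row. It was made from the same 6 libraries and is no second experiment. After the authors' batch correction the deposited log2 values gave HEY1 differences of 2.35, 2.37 and 3.34 within numbers 1 to 3. HES1 gave 1.47, 1.70 and 1.78, and HES5 ran from -1.96 to -0.38. What the correction was made for is not stated. A correction by replicate number would shift both libraries of a number alike, so these differences are no check against a batch effect.

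**Figure D5:**
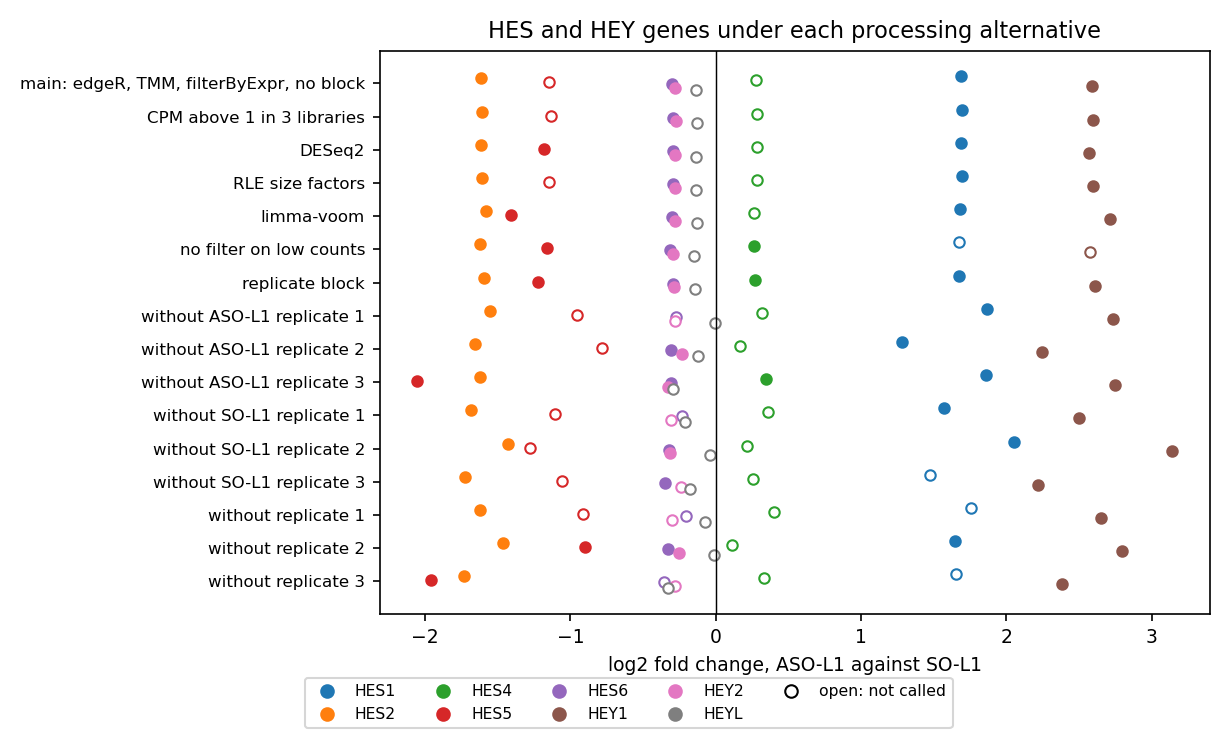
Log2 fold change of ASO-L1 against SO-L1 for the 8 tested members, the first row as reported and then under 15 processing alternatives. Filled points are called and open points are not. HES2 is filled in every row, HEY1 in all but the row with no filter, HEYL is open throughout, and no member crosses 0.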

How the data were processed

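The members and all gene lists were chosen with earlier results of these data known. RNA-seq was run on 3 SO-L1 and 3 ASO-L1 libraries. The authors deposited raw read counts per gene symbol. Per the submitters' processing notes, the tools were TopHat2 2.0.13, Trim Galore 0.4.0, Subread 1.5.0 and featureCounts, with hg19, and the table's title states removal of duplicates, which lowers high counts most. Annotation and strand setting: not given in the sources used here. The authors also deposited log2 normalised values after a batch correction, and a comparison table that holds, per the file headers, log2 fold changes, mean log2 expression, a t score, a log-odds score, p-values and adjusted p-values. Its model is not stated.

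Tested genes had passed filterByExpr (edgeR 4.0.16, minimum count 10, minimum total 15), 16873 of 53712 rows, of which 20275 had no read. TMM factors and the robust quasi-likelihood test (two-sided, no block, Benjamini-Hochberg over all tested genes, calls under 0.05) followed, in R 4.3.3. An SE is the log2 fold change over the root of F. CPM are TMM-normalised. The common coefficient of variation was 10.2%. An exact permutation test of 3 against 3 cannot go below p = 0.1, so none was used. The procedure was first tested on simulated counts. Library totals limit the precision of genes with few reads, such as HES7.

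Pairs of libraries with the same number had correlated deviations from their group means (0.102, 0.377 and 0.211), each over 0.1, which met the rule for treating the numbers as pairs. Reported calls come from the fit without a block, and the blocked value or call stands beside each recomputed result whose call it changes. SO-L1 1 with ASO-L1 3 (0.156) and SO-L1 3 with ASO-L1 1 (0.162) were as high, so the pairing of numbers 1 and 3 is unsettled. No 2 libraries of a group agreed within sampling noise (chi-square per degree of freedom 2.05 to 24.5). Pairs with replicate 2 were the least alike, at 18.9 and 24.5 in ASO-L1 and 11.3 and 12.4 in SO-L1. Replicates 1 and 3 gave 2.05 in ASO-L1 and 6.44 in SO-L1. Replicate 2 thus stood apart over the whole table, not only in the genes where it is named as highest.

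Named were all members, all ligands, receptors, feedback targets and bHLH-O relatives, up to 4 called genes with the smallest p per other pathway list, the top or called markers (up to 3 per list), the 2 genes most like each called member (average log2 CPM at least 1) and their nearest neighbours. GPR153 and further markers were named after their values were seen. Alternatives were RLE factors, DESeq2 1.42.0, limma-voom (limma 3.58.1), 2 other filters, a replicate block and leaving out libraries.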

Additional observations from a re-analysis of the deposited data

How the results depend on the processing

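Over 15 alternatives no member changed direction. Of 120 member results 96 kept their side of the threshold, 14 lost it and 10 gained it. Of 1212 for the other named genes 1010 kept it, 157 lost it, 31 gained it and 14 changed sign. Those 14 belong to 5 genes that were not called. Leaving out libraries moved the log2 fold change of DLK2 between -0.014 and 0.18, of BHLHE41 between -0.36 and 0.35, of NES between -0.047 and 0.076 (-0.0062 with no filter), of KDR between -0.055 and 0.034 and of HDDC2 between -0.028 and 0.013.

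The count of called genes was 5684, and 1183 to 7197 when libraries were left out (3166 without SO-L1 replicate 1, 2975 without SO-L1 replicate 3). Called members were 5, and 2 to 7 in leave-outs, with 3 without ASO-L1 replicate 1, SO-L1 replicate 1 or SO-L1 replicate 3. Called Notch pathway genes were 13, and 2 to 18 in leave-outs. The replicate block gave 7719 called genes, 7 members and 23 Notch pathway genes. Apart from HES4, HES5, DLL1, JAG1, DLK1, BHLHE40, ESPN, POU5F1, LIN28A and T (adjusted p = 0.0187), it changed no call among the named genes that were recomputed. Leaving out both libraries of a number leaves 2 against 2. The cause of the other shifts was not tested. HES7 had too few reads to be tested.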
